A study of Mus musculus with 6 samples.

Results

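Myosins are motor proteins that walk on or pull actin filaments. The genes described here encode their heavy chains (Myh and Myo), their light chains (Myl) and the light chain kinases Mylk and Mylk3. Members were every row of the count table whose mouse symbol is Myo or Myh plus a number, with a class letter for Myo only, or Myl plus a number with or without a or b, together with both kinases. This gave 52 of 54418 rows and 51 symbols, because Myl12b has 2 Ensembl identifiers. Members were thus chosen by symbol and not by a measured value, but the family was taken up with earlier results of these libraries known, so its counts below are a description and not independent evidence.

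RNA came from mouse organoids, self-organising epithelial cultures that the labels call AKP, in a study of colorectal cancer. The labels name no tissue of origin. All 6 libraries carry that AKP background. They form 2 groups of 3, with the genotypes Control and GATA6KO, and the knocked-out gene encodes an endodermal transcription factor with GATA-binding zinc fingers. No age, treatment or time is given, nor how the knockout was made or whether a library is a separate culture or clone, so the p-values here speak of library-to-library spread alone, part or all of which could be technical.

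In absorptive intestinal cells, microvilli stand on the apical surface as a brush border. Class I myosins tie the membrane to the actin core of each microvillus, Myo6 works at its base, and Myo7b holds the cadherin links between microvillus tips. Class V myosins carry recycling vesicles toward the apical membrane, while nonmuscle myosin II filaments contract the junctional belt and the cell cortex. Contraction by myosin II is switched on when Mylk or the Rock kinases phosphorylate its regulatory light chains, and switched off by myosin phosphatase.

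The regulatory light chains are shown first because their sequences set how far their counts can be told apart. The lines give coding bases 1 to 90 of GENCODE M21 transcripts, from the start codon, and capitals mark bases that differ from Myl12a.
Myl12a (ENSMUSG00000024048): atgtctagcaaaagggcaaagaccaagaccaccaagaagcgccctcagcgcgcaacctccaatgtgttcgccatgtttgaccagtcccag
Myl12b (ENSMUSG00000034868): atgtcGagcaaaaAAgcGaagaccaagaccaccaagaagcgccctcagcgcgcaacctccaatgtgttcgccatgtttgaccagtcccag
Myl12b (ENSMUSG00000117098): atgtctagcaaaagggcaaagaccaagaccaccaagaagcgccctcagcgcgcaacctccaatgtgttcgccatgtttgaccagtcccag
Myl9 (ENSMUSG00000067818): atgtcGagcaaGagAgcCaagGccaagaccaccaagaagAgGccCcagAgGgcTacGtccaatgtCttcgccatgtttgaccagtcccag

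Over 516 coding bases Myl12a and the main Myl12b gene were 96.5% identical, and Myl12a and Myl9, the smooth muscle form, 85.7%. The second Myl12b identifier spans chromosome 17 from 70974119 to 71002208 (mm10), across both Myl12b (70973133 to 70990890) and Myl12a (70993656 to 71002878). It was 99.8% identical to Myl12a in its coding part. Of its distinct 31-base words, 97.2% also occur in transcripts of other genes, against 26.0% for the main Myl12b gene, 17.7% for Myl12a and 11.4% for the essential light chain Myl6. Each other tested member shared at most 1.83% of its words. The estimated counts of the 3 Myl12 rows therefore depend on how reads were divided, and their sum is given beside them.

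The targeted gene was lower in each GATA6KO library. Levels are in CPM, counts per 1000000 of the TMM-scaled library total. Gata6 measured 25.3, 23.2 and 28.0 CPM in Control replicates 1 to 3 and 14.3, 16.0 and 8.24 CPM in the GATA6KO ones (log2 fold change -0.99, SE 0.25, edgeR adjusted p = 0.0486). The call ended on library totals alone (adjusted p = 0.0573) and without each Control library (adjusted p = 0.128 to 0.181). Transcript remained in all 3 GATA6KO libraries, and the labels do not say where the lesion lies. Total counts ran from 22973245 to 31328415 per library, of which members took 0.405% to 0.491%. The median SD of a gene on the log2 scale was 0.0949 in Control and 0.279 in GATA6KO. GATA6KO replicate 2 stood apart at chromosome 14, where the median gene was -0.90 away from the Control mean in log2 units. That chromosome holds Myh6 and Myh7 alone among members, both at 3 counts or fewer in each library.

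All 8 epithelial markers were detected, with Krt8 at 3272 CPM and Epcam at 859 CPM in Control. Fibroblast markers summed to at most 0.700 CPM in any library and smooth muscle markers to at most 0.525 CPM, with Lum, Lmod1 and Myocd at 0 counts throughout. The endothelial list had Emcn at 0, the immune list Tyrobp, and the striated muscle list Myod1 and Myog. Other genes of these lists were counted, up to 160 counts in a library for Vwf, 425 for Cd68 and 437 for Tnni2. In Control, Tnni2 (mean 8.36 CPM) and Cd68 (mean 11.9 CPM) made up most of their lists. Cd68 fell to a mean of 3.43 CPM (edgeR adjusted p = 0.0190), a call lost without each Control library (adjusted p = 0.0718 to 0.0958). The striated muscle list summed to 10.5 to 11.2 CPM in Control and 6.85 to 19.7 CPM in GATA6KO, the endothelial list to 4.56 to 5.44 and 5.80 to 6.84 CPM, and the immune list to at most 14.4 and 5.78 CPM.

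Of the 52 member rows, 27 had counts enough to be tested, which asks for about 10 counts in at least 3 libraries. The other 25 included 15 of 16 striated muscle members. Of these 25, 6 were at 0 in all libraries, and 23 had at most 10 counts in each library. The exceptions were Myh10, the nonmuscle heavy chain IIB, and Myh11, the smooth muscle heavy chain. Myh10 had 4, 9 and 18 counts in Control and 6, 7 and 91 counts in GATA6KO replicates 1 to 3. Myh11 had 3, 3 and 13 counts in Control and 4, 2 and 1 in GATA6KO. Myl9 had at most 1 count in a library, so the nonmuscle and smooth muscle regulatory light chains measured here were those of Myl12a and Myl12b. Among the unconventional myosins, Myo1f, Myo1g, Myo3a, Myo3b, Myo15, Myo16 and Myo18b had at most 6 counts in any library.

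By edgeR's quasi-likelihood test, 5 of the 27 tested members fell in GATA6KO and 1 rose. Over all 14714 genes tested, 12.4% were called, 5.47% lower and 6.92% higher. The members that fell were Myo7b, Myo1d, Myo1c, Myo7a and Myo15b, and the one that rose was Mylk. The median log2 fold change was -0.09 over the 27 members and 0.02 over all genes tested. Scaled to library totals alone, 2 members were called higher and 2 lower. Each of the 6 calls was lost when any 1 of Control replicates 1, 2 and 3 was left out, with 0 members called by edgeR each time. At an unadjusted p under 0.05, 8 to 10 members passed in those 3 fits, while DESeq2 on all 6 libraries called 12.

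**Figure D1:**
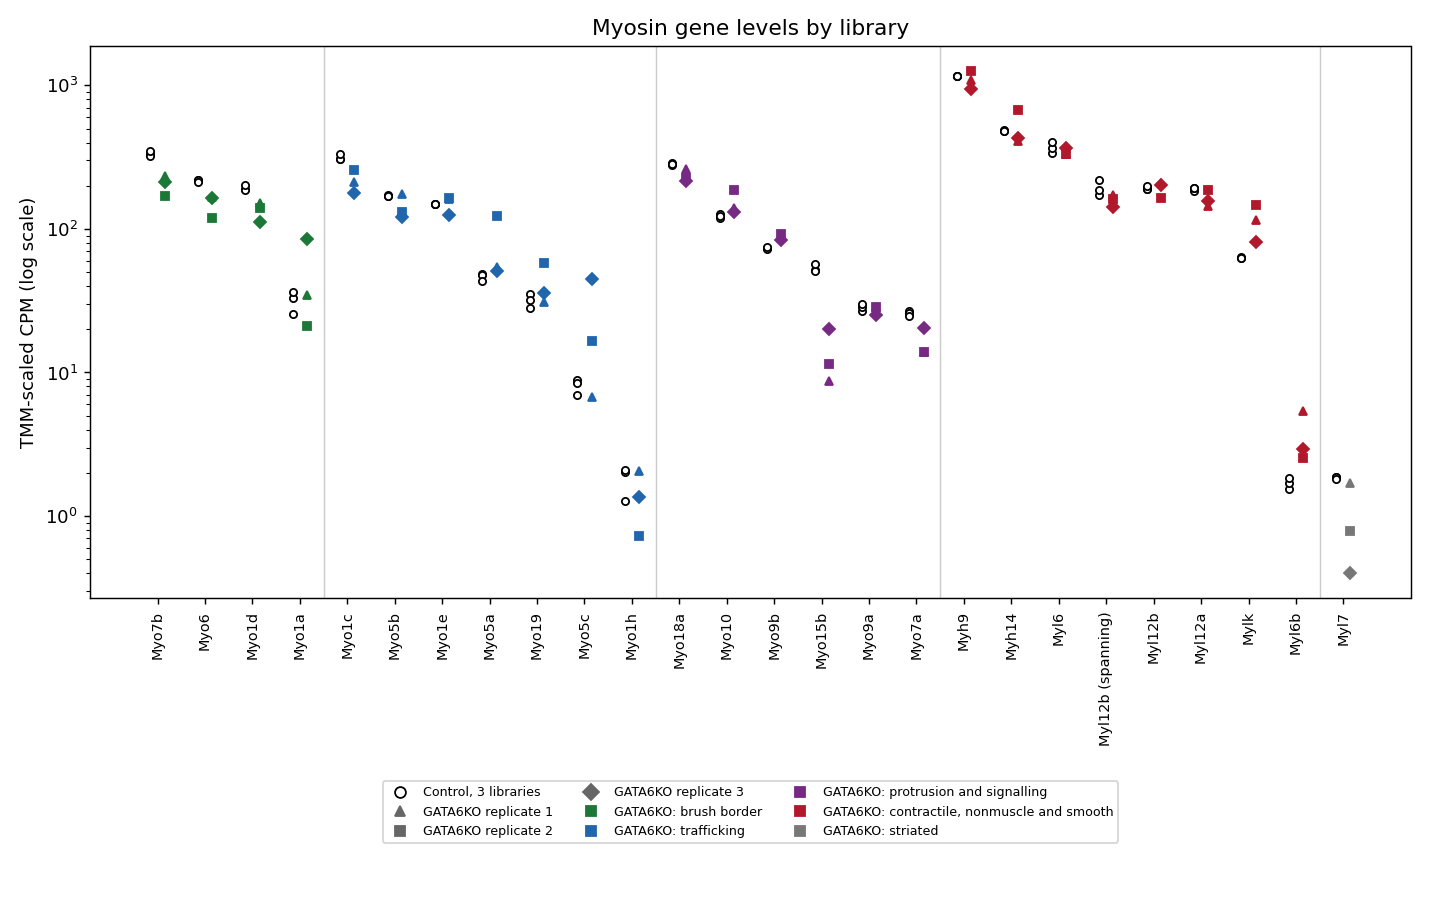
TMM-scaled CPM (log axis) of 26 of the 27 tested members, by class and in order of the Control mean. Open circles are the 3 Control libraries and filled symbols GATA6KO replicates 1 to 3. "Spanning" marks the second Myl12b identifier. Myo15b lies at 8.73 to 20.2 CPM in GATA6KO, below its Control values of 51.2 to 57.4 CPM.

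Of 4 brush border myosins tested, 2 fell in GATA6KO (Myo7b and Myo1d), 0 rose and 2 were not called (Myo6 and Myo1a), beside 12.4% called over all genes, with a median log2 fold change of -0.53. Their summed level was 766 to 790 CPM in Control and 450 to 589 CPM in GATA6KO, with no overlap. Sums of the protrusion and signalling members did not overlap either (578 to 595 and 497 to 559 CPM), nor did the low striated ones. Those of the trafficking and the nonmuscle and smooth contractile members overlapped. In bulk RNA, fewer cells of a type and less RNA per cell cannot be told apart. General epithelial markers moved the same way: the list summed to 9761 to 10633 CPM in Control and 6470 to 7729 CPM in GATA6KO. All 8 of them lay lower in each GATA6KO library and 4 passed the test. Of 14714 genes tested, the groups did not overlap for 40.8%, and for 3011 genes GATA6KO was the lower group. Without each Control library the calls of Cdh1, Cldn7 and Krt8 were lost, and without Control replicate 2 or 3 that of Krt18, with adjusted p reaching 0.127. The part of these markers in the result was not tested.

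Myo7b (chromosome 18, 31959234 to 32036961), the motor of the tip-link complex, measured 332, 322 and 349 CPM in Control and 235, 169 and 211 CPM in GATA6KO replicates 1 to 3. Each GATA6KO library lay below each Control library. Myo7b fell by 0.71 on the log2 scale (SE 0.13, edgeR adjusted p = 0.0205), or 1.63-fold, and the adjusted p ran from 0.0768 to 0.0985 without each Control library. Myo7b was the most abundant brush border member also per kilobase of merged exons, at a Control level of 50.5 CPM per kb.

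Myo1d (chromosome 11, 80482126 to 80780025), a class I motor of microvilli, measured 190, 188 and 201 CPM in Control and 152, 140 and 111 CPM in GATA6KO. It fell by 0.52 on the log2 scale (SE 0.13, edgeR adjusted p = 0.0439). Every GATA6KO value lay below every Control value. The call was lost on library totals alone (adjusted p = 0.0595) and without GATA6KO replicate 2 (adjusted p = 0.0541). Leaving out each Control library in turn gave Myo1d an adjusted p of 0.133 to 0.166. With replicate number as a block, its adjusted p was 0.0931. Myo6 (chromosome 9, 80165031 to 80311729), the motor that moves toward the microvillus base, measured 219, 220 and 213 CPM in Control and 168, 120 and 165 CPM in GATA6KO. Its groups did not overlap either, but it stayed just outside the threshold (log2 fold change -0.53, SE 0.14, edgeR adjusted p = 0.0543). Myo6 was called by DESeq2 (adjusted p = 0.00596), and by edgeR without GATA6KO replicate 1 or 2 (adjusted p = 0.0293 and 0.0241). Limma-voom with a spread per group called it too (adjusted p = 0.0241). So did edgeR with no filter (adjusted p = 0.0375) or with 1 CPM required in all libraries of a group (adjusted p = 0.0494). Other settings left Myo6 uncalled, among them limma-voom (adjusted p = 0.0531) and edgeR with replicate number as a block (adjusted p = 0.0923). Without each Control library edgeR gave it an adjusted p of 0.163 to 0.171, and on library totals alone 0.0646.

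Myo1a, the brush border myosin I that links membrane to core bundle, differed from these 3. It measured 33.1, 36.2 and 25.7 CPM in Control and 34.7, 20.9 and 85.0 CPM in GATA6KO replicates 1 to 3. Replicate 3 was high and replicate 2 low, so that the groups overlapped (log2 fold change 0.57, SE 0.48, edgeR adjusted p = 0.454). Whether its fold change differs from that of Myo7b was not tested.

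Partners of the brush border myosins were read from a separate list of 19 symbols, of which 16 were tested. Of these, 5 fell and 0 rose, beside 12.4% called over all genes tested, with a median log2 fold change of -0.72. Ush1c, the scaffold that binds Myo7b in the tip-link complex, went from 21.0, 23.3 and 22.5 CPM in Control to 3.81, 1.80 and 6.60 CPM in GATA6KO (log2 fold change -2.45, SE 0.43, edgeR adjusted p = 0.0165). The tip-link cadherin Cdhr5 fell from a mean of 30.1 to 14.7 CPM (adjusted p = 0.0291). Its partner Cdhr2 was at 133 to 138 CPM in Control and 21.9, 148 and 32.1 CPM in GATA6KO. Replicate 2 was high and the groups overlapped (adjusted p = 0.343, and 0.00209 without that replicate). Pls1, the plastin that bundles microvillus actin, fell from 362 to 220 CPM (adjusted p = 0.00902), and the actin regulator Eps8 from 284 to 209 CPM (adjusted p = 0.0317). Vil1, villin, had means of 453 and 417 CPM (adjusted p = 0.364). Without each Control library in turn, the calls of Ush1c, Cdhr5 and Eps8 were lost, and that of Pls1 without Control replicate 2 or 3, with adjusted p reaching 0.143. Cdhr5 also lost its call without GATA6KO replicate 2 (adjusted p = 0.0508) and Eps8 without GATA6KO replicate 3 (adjusted p = 0.0569).

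Trafficking myosins had fold changes of both signs. Of 8 tested, 1 fell and 0 rose, beside 12.4% called over all genes tested, and the median log2 fold change was 0.20. Myo1c (chromosome 11, 75650504 to 75673910), which brings recycling vesicles to the plasma membrane, measured 308, 307 and 334 CPM in Control and 214, 256 and 177 CPM in GATA6KO. All 3 GATA6KO values were below Control. It fell by 0.55 on the log2 scale (SE 0.14, edgeR adjusted p = 0.0498), at the edge of the threshold. It was not called on library totals alone (adjusted p = 0.0756), nor without GATA6KO replicate 1 or 3 (adjusted p = 0.0580 and 0.0601). Leaving out each Control library in turn gave Myo1c an adjusted p of 0.151 to 0.193. With replicate number as a block, its adjusted p was 0.0969.

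Myo5b (chromosome 18, 74440936 to 74771493), the apical recycling motor whose loss causes microvillus inclusion disease, measured 171, 169 and 169 CPM in Control. Its GATA6KO values were 176, 130 and 120 CPM, so replicate 1 lay above Control and the other two below it (log2 fold change -0.25, SE 0.15, edgeR adjusted p = 0.288). Myo5a, best known as the melanosome motor, was at 43.4 to 48.2 CPM in Control and 54.2, 123 and 50.9 CPM in GATA6KO (edgeR adjusted p = 0.203). Its groups did not overlap, but replicate 2 was far above the other two. Myo5c, the class V motor of exocrine secretory cells, was at 6.97 to 8.81 CPM in Control and 6.72, 16.6 and 45.1 CPM in GATA6KO (log2 fold change 1.49, SE 0.62, edgeR adjusted p = 0.156).

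The mix of class V motors thus differed between the knockout libraries. Per kilobase of merged exons, Myo5b made up 80.8% to 82.0% of the class V level in Control. In the GATA6KO libraries, in order of replicate, it made up 80.6%, 57.1% and 60.4%. Myo5a reached 35.6% in replicate 2, against 13.9% to 15.2% in Control, and Myo5c 22.8% in replicate 3, against 3.38% to 4.19%. In class I, Myo1a held 5.98% to 8.66% in Control and 25.4% in GATA6KO replicate 3. These shares describe single libraries and carry no test.

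**Figure D2:**
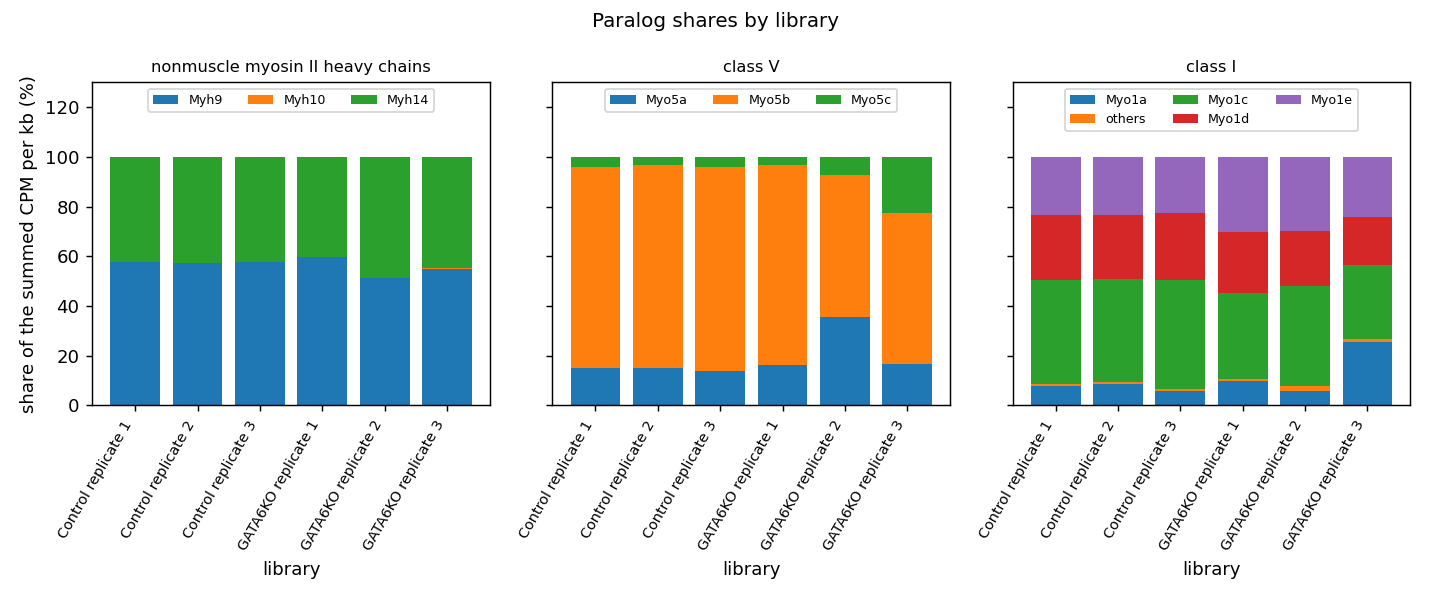
Share (%) of each paralog in the summed CPM per kb of its family, in each of the 6 libraries, minor class I genes being joined as others. Myo5b holds most of class V in Control and in GATA6KO replicate 1, while Myo5a reaches 35.6% in replicate 2 and Myo5c 22.8% in replicate 3.

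Among the remaining trafficking members, Myo1e, a motor of endocytosis, had means of 150 CPM in both groups (adjusted p = 0.983), with GATA6KO values of 162, 164 and 125 CPM around a Control range of 149 to 150 CPM. Myo19, the mitochondrial motor, ran from 28.3 to 35.3 CPM in Control and was highest in GATA6KO replicate 2, at 57.7 CPM. Myo1h stayed at 2.10 CPM or less.

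Of 20 tested trafficking partners (from 22 listed), 2 fell and 1 rose, beside 12.4% called over all genes tested. Their median log2 fold change was -0.04. Optn, optineurin, an adaptor that binds Myo6, rose from 35.2, 33.9 and 36.0 CPM to 94.3, 79.6 and 57.0 CPM (log2 fold change 1.13, SE 0.18, edgeR adjusted p = 0.0130). Another Myo6 adaptor, Tom1l2, fell from a mean of 57.6 to 32.4 CPM (adjusted p = 0.0122). Sytl2, a Rab27 effector, fell from 15.2 to 3.43 CPM (adjusted p = 0.0104). Rab11a, the small GTPase that recruits Myo5b, had means of 143 and 157 CPM (adjusted p = 0.318). The calls of Optn and Tom1l2 were lost without each Control library, and that of Sytl2 without Control replicate 1 or 3, with adjusted p reaching 0.0730.

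Myosins of protrusions and signalling held the largest fold change among members. Of 6 tested, 2 fell and 0 rose, beside 12.4% called over all genes tested, with a median log2 fold change of -0.17. Myo15b (chromosome 11, 115858406 to 115892603), a class XV heavy chain, measured 51.7, 51.2 and 57.4 CPM in Control and 8.73, 11.4 and 20.2 CPM in GATA6KO replicates 1 to 3. The highest GATA6KO value was well below the lowest Control value. Myo15b fell by 1.99 on the log2 scale (SE 0.30, edgeR adjusted p = 0.0108), or 3.97-fold. Its adjusted p was 0.0508 to 0.0628 without each Control library and 0.00257 to 0.0213 without each GATA6KO library. Recql5 overlaps Myo15b on the opposite strand, and how strand was used in counting is not given in the sources used here. Recql5 had means of 22.9 and 24.7 CPM (log2 fold change 0.11, adjusted p = 0.572).

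Myo7a (chromosome 7, 98051060 to 98119524), the stereocilia motor of hair cells and a paralog of Myo7b, measured 26.8, 26.1 and 24.9 CPM in Control and 13.8, 13.8 and 20.3 CPM in GATA6KO. All GATA6KO values were lower, and the fall was 0.70 on the log2 scale (SE 0.18, edgeR adjusted p = 0.0494). It was not called on library totals alone (adjusted p = 0.0639), nor without GATA6KO replicate 1 or 2 (adjusted p = 0.0549 and 0.0766). Leaving out each Control library in turn gave Myo7a an adjusted p of 0.163 to 0.177. With replicate number as a block, its adjusted p was 0.0934. Both class VII heavy chains were thus called lower, at Control levels of 3.03 CPM per kb for Myo7a and 50.5 CPM per kb for Myo7b.

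The other 4 members of this class were not called. Myo18a, which ties the Golgi to actin, measured 286, 281 and 284 CPM in Control and 260, 226 and 215 CPM in GATA6KO (log2 fold change -0.28, SE 0.10, edgeR adjusted p = 0.108). Myo10, the filopodial motor, measured 127, 119 and 123 CPM in Control and 140, 186 and 132 CPM in GATA6KO (log2 fold change 0.31, SE 0.14, edgeR adjusted p = 0.177). For both, the groups did not overlap. Myo9b, a heavy chain with a GTPase-activating domain, was at 72.1 to 75.2 CPM in Control and 83.9 to 92.7 CPM in GATA6KO (edgeR adjusted p = 0.0741). Its paralog Myo9a had means of 28.5 and 27.4 CPM (adjusted p = 0.753). Groups did not overlap for 14 of the 27 tested members, 9 lower and 5 higher, and for 40.8% of all genes tested.

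**Figure D3:**
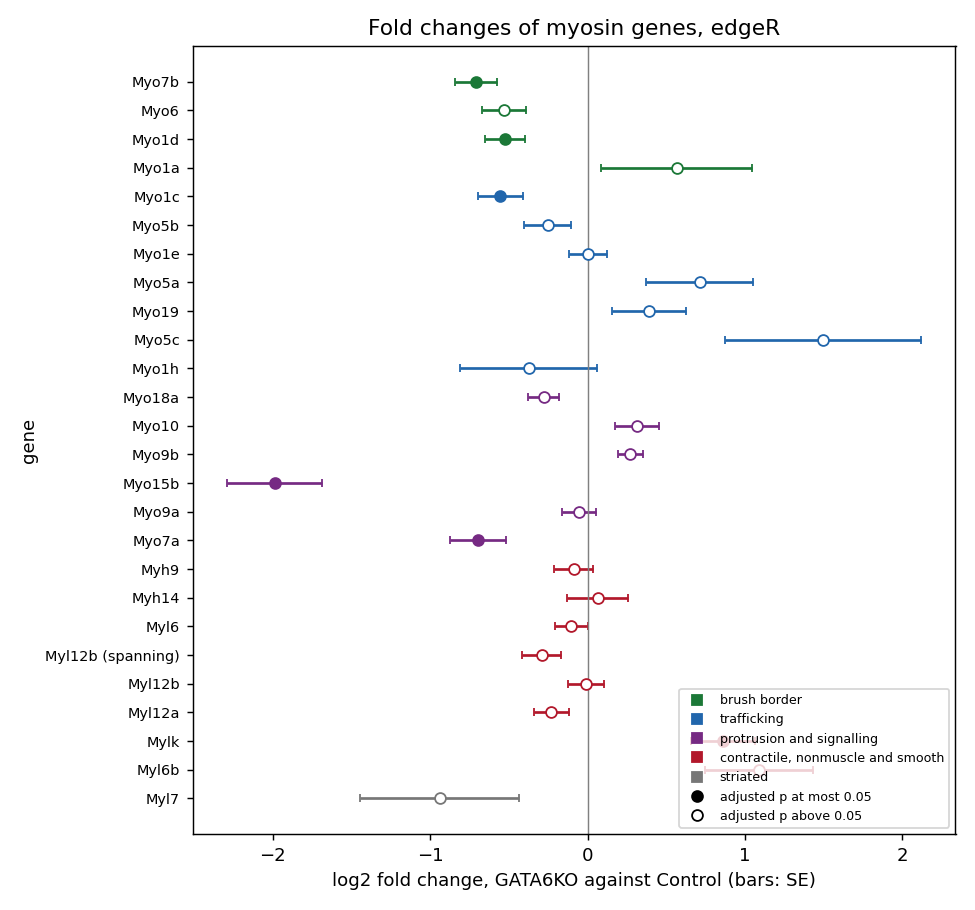
Log2 fold change of GATA6KO against Control (edgeR) for 26 of the 27 tested members, with its SE as a bar. Filled points have an adjusted p of at most 0.05: Myo7b, Myo1d, Myo1c, Myo15b and Myo7a on the left and Mylk on the right.

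The contractile machinery was the most abundant class. Its heavy and light chains showed no call, while the kinase Mylk rose. Of 8 tested rows, 1 rose and 0 fell, beside 12.4% called over all genes tested. The median log2 fold change was -0.05, which was 0.02 with library totals alone. The summed level was 2591 to 2738 CPM in Control and 2328 to 2926 CPM in GATA6KO, so the groups overlapped.

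Myh9 (chromosome 15, 77760587 to 77842175), the nonmuscle heavy chain IIA, had the highest CPM of all members. It measured 1162, 1164 and 1170 CPM in Control and 1086, 1260 and 941 CPM in GATA6KO (log2 fold change -0.09, SE 0.12, edgeR adjusted p = 0.662). Myh14 (chromosome 7, 44605803 to 44670843), the IIC heavy chain of epithelia, measured 479, 487 and 482 CPM in Control and 410, 673 and 431 CPM in GATA6KO (log2 fold change 0.06, SE 0.19, edgeR adjusted p = 0.851). For both genes the 3 Control libraries lay close together and GATA6KO replicate 2 was highest. Per kilobase, Myh9 held 57.3% to 57.7% of the nonmuscle heavy chain level in Control and 59.8%, 51.3% and 55.0% in GATA6KO, Myh14 holding nearly all the rest. Myh10 held at most 0.219%.

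Of the light chains, Myl6, the essential chain of myosin II, was at 339 to 405 CPM in Control and 332 to 368 CPM in GATA6KO (adjusted p = 0.531). The rows of Myl12a and the main Myl12b gene had Control means of 190 and 194 CPM and GATA6KO means of 162 and 193 CPM. The spanning Myl12b identifier, whose bases are nearly all shared, had 194 and 158 CPM. None of these rows was called (adjusted p = 0.208, 0.971 and 0.160). Summed, the 3 rows gave 546, 571 and 615 CPM in Control and 527, 510 and 501 CPM in GATA6KO, a narrow separation. Myl6b, a minor essential chain, was at 1.53 to 1.83 CPM in Control and 5.35, 2.52 and 2.94 CPM in GATA6KO (log2 fold change 1.09, SE 0.35, edgeR adjusted p = 0.0853).

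Mylk (chromosome 16, 34745210 to 35002420), the calmodulin-activated kinase of the regulatory light chains, measured 62.8, 63.7 and 62.7 CPM in Control. In GATA6KO replicates 1 to 3 it measured 115, 147 and 81.3 CPM. Control values were nearly equal and each GATA6KO library lay above them, by unequal amounts. Mylk rose by a log2 fold change of 0.86 (SE 0.20, edgeR adjusted p = 0.0403), or 1.82-fold. It just missed the threshold with limma-voom (adjusted p = 0.0505) and without GATA6KO replicate 1 (adjusted p = 0.0509). Limma-voom with a spread per group called Mylk (adjusted p = 0.0135). Leaving out each Control library in turn gave Mylk an edgeR adjusted p of 0.138 to 0.164. With replicate number as a block, its edgeR adjusted p was 0.0620. The smooth muscle marker Acta2 was not tested for want of counts, as were the other 7 markers of that list. The cardiac kinase Mylk3 had at most 4 counts in a library.

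Of other genes that set light chain phosphorylation, 21 of 24 listed were tested. Of those tested, 4 fell and 1 rose, beside 12.4% called over all genes tested, with a median log2 fold change of -0.18. Rhoc, a small GTPase upstream of the Rock kinases, fell from 5.17, 6.10 and 4.74 CPM to 0.635, 0.951 and 1.001 CPM (log2 fold change -2.62, SE 0.28, edgeR adjusted p = 0.00374), and it was called without each library in turn. Ppp1r12a, the subunit that brings myosin phosphatase to myosin, fell from a mean of 182 to 126 CPM (adjusted p = 0.0209). Arhgef28, a guanine nucleotide exchange factor, fell from 105 to 69.7 CPM (adjusted p = 0.0187), and the death-associated kinase Dapk2 from 27.7 to 16.4 CPM (adjusted p = 0.0291). The kinases Rock1 and Rock2 had means of 164 and 156 CPM and of 485 and 497 CPM (adjusted p = 0.584 and 0.888). The calls of Ppp1r12a, Arhgef28 and Dapk2 were lost without each Control library, at adjusted p of up to 0.134.

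Of 17 tested contractile filament partners (18 listed), 4 fell and 1 rose, beside 12.4% called over all genes tested. Their median log2 fold change was -0.15. The cytoplasmic actin Actg1 fell from a mean of 2620 to 1743 CPM (adjusted p = 0.0244), and Anln, anillin of the cytokinetic ring, from 252 to 190 CPM (adjusted p = 0.0377). Synpo, synaptopodin, rose from 1.05 to 4.24 CPM (adjusted p = 0.0112). Actb had means of 2715 and 2446 CPM (adjusted p = 0.403). The calls of Actg1, Anln and Synpo were lost without each Control library, at adjusted p of up to 0.175. Leaving out GATA6KO replicate 3 ended the calls of Actg1 and Anln too (adjusted p = 0.0512 and 0.0606).

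Calmodulin serves both as light chain of the unconventional myosins and as activator of Mylk. Of 7 tested chaperones, calmodulins and S100 proteins (9 listed), 2 rose and 1 fell, beside 12.4% called over all genes tested. Their median log2 fold change was -0.02. Calm2 and Calm3 had means of 444 and 512 CPM and of 280 and 224 CPM (adjusted p = 0.475 and 0.118). S100a4, which binds the Myh9 tail, rose from 1.66, 2.22 and 1.97 CPM to 10.3, 8.95 and 9.91 CPM (log2 fold change 2.31, SE 0.20, edgeR adjusted p = 0.00203), and was called without each library in turn. S100a10 fell from a mean of 392 to 251 CPM (adjusted p = 0.0404). The call of S100a10 was lost without each Control library, at adjusted p of up to 0.174, and without GATA6KO replicate 3 (adjusted p = 0.0896). The myosin chaperone Unc45a had means of 48.0 and 47.3 CPM (adjusted p = 0.909).

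Myl7, the atrial regulatory light chain, was the 1 striated muscle member with counts enough to test. It measured 1.88, 1.87 and 1.80 CPM in Control and 1.71, 0.787 and 0.4002 CPM in GATA6KO replicates 1 to 3. All 3 GATA6KO values lay below Control, replicate 1 narrowly (log2 fold change -0.94, SE 0.51, edgeR adjusted p = 0.251). The striated markers Acta1 and Tnnt1 moved in opposite directions at low level, with means of 1.37 and 3.84 CPM and of 0.732 and 0.266 CPM (adjusted p = 0.0324 and 0.0428). Both calls were lost without each Control library, at adjusted p of up to 0.192, and without GATA6KO replicate 3, that of Tnnt1 also without replicate 2.

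Promoters were searched for GATAA, the core letters GATA with an A after them, on both strands (TTATC on the other). Windows were the 250 bases before each RefSeq start on GRCm38.p6. GATA followed by another letter was not searched for. Of all 32851 windows, 22.6% hold GATAA. The table covered 45 of 51 member symbols with 57 windows, of which 17.5% hold GATAA. For the called members, 4 of 6 symbols (Mylk, Myo15b, Myo1c and Myo7a) had 7 windows, and 0 hold GATAA. The called brush border myosins Myo7b and Myo1d had no window and were not searched. A match or its absence is a description of these letters alone. The Myl7 and Myo15b windows are printed as the tested member with a match nearest its start and as the member with the largest fold change. Capitals mark GATAA, whose first base lies 41 bases before the Myl7 start.
Myl7, chr11:5898783-5899032, minus strand: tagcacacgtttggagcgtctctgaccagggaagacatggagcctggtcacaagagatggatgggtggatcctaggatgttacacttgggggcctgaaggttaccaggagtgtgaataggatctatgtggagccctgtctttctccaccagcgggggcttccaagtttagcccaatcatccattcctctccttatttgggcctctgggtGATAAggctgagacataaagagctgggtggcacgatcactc
Myo15b, chr11:115857675-115857924, plus strand: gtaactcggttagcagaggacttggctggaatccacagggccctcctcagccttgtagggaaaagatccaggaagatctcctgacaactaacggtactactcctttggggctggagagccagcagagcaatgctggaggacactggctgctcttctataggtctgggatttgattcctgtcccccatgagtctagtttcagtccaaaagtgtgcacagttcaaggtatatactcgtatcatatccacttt

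Departures from Control differed between the 3 knockout libraries. Of the 27 tested members, the library farthest from the Control mean on the log2 scale (pseudocount 0.1 CPM) was GATA6KO replicate 1 for 5, replicate 2 for 11 and replicate 3 for 11. Over all genes tested these shares were 24.1%, 41.4% and 34.5%, against 18.5%, 40.7% and 40.7% for members. Myo15b and Myl6b were among those farthest in replicate 1. Myo7b, Myo6, Mylk, Myo5a, Myo19 and Myh14 were farthest in replicate 2, and Myo1a, Myo5c, Myo1c, Myo1d, Myo5b and Myl7 in replicate 3. Median log2 ratios of the chromosomes that carry tested members stayed between -0.13 and 0.06 in the GATA6KO libraries.

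**Figure D4:**
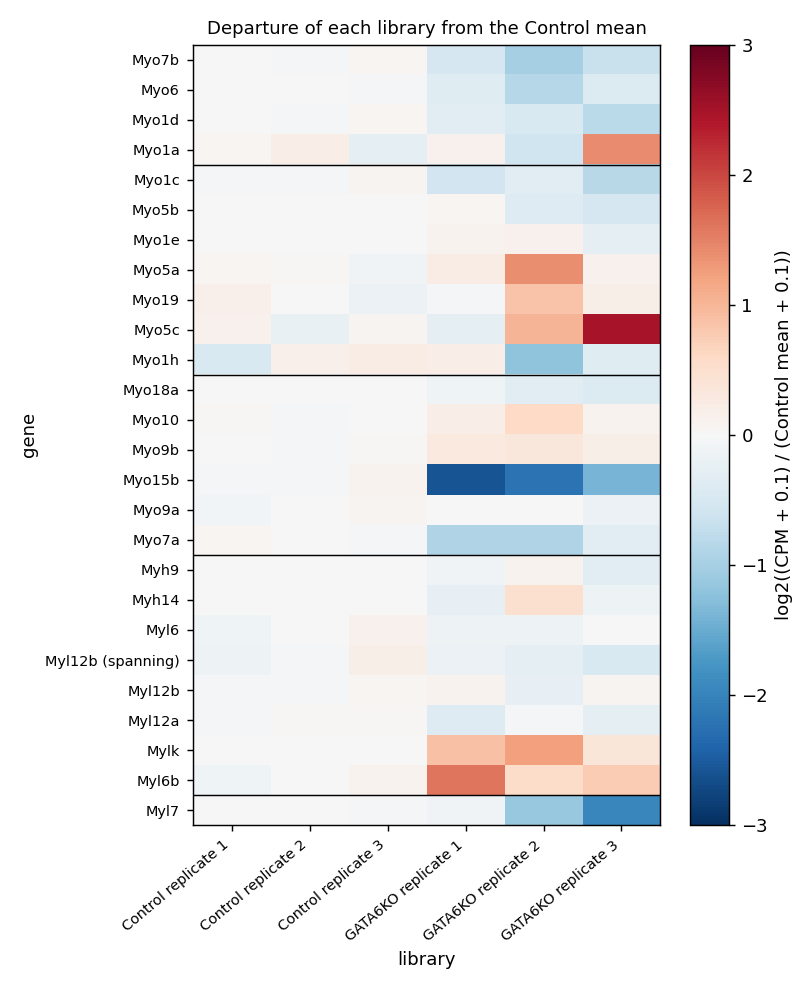
Log2 ratio of each library to the Control mean, (CPM + 0.1) over (Control mean + 0.1), for 26 of the 27 tested members, with lines between classes. Myo7b, Myo6, Myo1d, Myo1c, Myo15b and Myo7a are blue in all 3 GATA6KO columns and Mylk is red, while Myo1a is reddest in GATA6KO replicate 3 (1.42), Myo5a in replicate 2 (1.41) and Myo5c in replicates 2 and 3 (1.03 and 2.46).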

How the data were processed

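Poly(A) RNA was made into directional libraries, per the labels' protocols. The authors deposited estimated counts per gene as whole numbers, not scaled between libraries. Per the submitters' processing notes, Salmon 1.3.0 and the build mm10 were used. How transcripts were summed and which annotation served is not given in the sources used here. Of 54418 identifiers, 54166 matched GENCODE M21, which gave symbols, positions, merged exon lengths and transcripts. Genes were kept by filterByExpr (at least 10 counts in 3 libraries, 15 in total), scaled by TMM and tested over all 14714 genes by edgeR 4.0.16 (quasi-likelihood, robust, no block, Benjamini-Hochberg, threshold 0.05), in R 4.3.3. This edgeR test gave each adjusted p unless another tool is named. DESeq2 1.42.0 and limma 3.58.1 were alternatives. The pipeline was tested on simulated counts. No label says what a shared replicate number marks, so libraries were not paired by it.

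Members, classes and partner lists were chosen with earlier results of these data known. Values in every library are given for called members with at least 1 CPM, and for the 2 most abundant tested members of a class. Of each partner list, up to 4 called genes with the smallest adjusted p were named. Gene names beyond these were chosen after their values were seen. Sharing of 31-base words was counted in M21 transcripts, and promoters come from RefSeq. The values of 1 member and of some partner genes are not reported here, though they remain in all counts and medians.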

Additional observations from a re-analysis of the deposited data

How the results depend on the processing

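Members called higher (1) became 2 with library totals alone, 5 with DESeq2, 0 with limma-voom (3 at an unadjusted p under 0.05) and 0 with the replicate block (3 unadjusted). Those called lower (5) became 2 with library totals alone and 2 with the replicate block. Limma-voom with a spread per group called 1 member higher and 6 lower. All genes called (1823) became 3238 with DESeq2 and 827 with the block, which also ended the call of Gata6 (adjusted p = 0.0915), and partner genes called (21) became 10 with the block. Same-numbered libraries deviated together weakly or not at all (r = -0.01, 0.07 and -0.09), which cannot exclude pairing with 3 libraries per group. The numbers are not taken as pairs because no label says what a shared number marks. With 1 library left out, members called higher ranged from 0 to 2, lower from 0 to 7, partners from 2 to 34 and all genes from 332 to 4360, each minimum being reached without a Control library. The log2 fold change of Myh9 ranged from -0.20 to 0.0084 with 1 library left out, turning without GATA6KO replicate 3. That of Myh14 ranged from -0.20 to 0.19, turning without GATA6KO replicate 2. With library totals alone, Myo9a and the main Myl12b gene changed sign. The cause of these shifts was not tested. No member called as reported changed direction in any of the 15 alternatives.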
